A study of Mus musculus with 30 samples.

Results

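Ovaries of adult female CD1 mice, an outbred stock, that had been dosed with di(2-ethylhexyl) phthalate (DEHP) at 200 ug/kg/day for 10 days were compared with ovaries of vehicle-dosed mice of the same stock. Both groups were taken at 0 months, that is, directly at the end of dosing. The comparison rests on 6 of the study's 30 messenger RNA libraries, selected by sample title: replicates 1 to 3 of DEHP 200 and replicates 1 to 3 of the vehicle control. The other libraries came from mice given a lower DEHP dose (20 ug/kg/day) or the plasticizer DiNP, diisononyl phthalate, in doses of 20 and 100 ug/kg/day, and from a second set of all these groups taken 3 months after dosing, which makes 10 groups of 3 in all. Of these, DEHP 20 at 0 months, DEHP 200 at 3 months and the vehicle control at 3 months are set beside the comparison below. For some lists the means of the remaining groups are given too. Every library holds the RNA of whole ovaries, with all cell types of the organ mixed. The stage of the estrous cycle, the route of dosing and the vehicle are not given in the sources used here. Nor do the labels say that replicates are separate mice, so the p-values below measure only a spread between libraries, which may be technical. Unless said otherwise, that spread and the SE were estimated within all 10 groups together, not from the 6 compared libraries alone.

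DEHP is a plasticizer that softens polyvinyl chloride and leaches from it, and it is studied as an endocrine disruptor. In the ovary, granulosa and theca cells of the follicle make estrogens and androgens, and after ovulation the follicle turns into a corpus luteum that makes progesterone and whose gene program waxes and wanes with the cycle. The unfolded protein response, described below, is the transcriptional program by which a cell with unfolded proteins in its endoplasmic reticulum (ER) raises chaperones, disulfide-forming enzymes and the machinery that degrades failed proteins.

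Values are log2 CPM (the log2 of read counts scaled to a common library total), and a difference is the DEHP 200 mean minus the control mean on this scale, so that 1 is a doubling. Approximate depths, taken from the smallest steps between values, were 30.1 to 30.3 M reads in the controls and 31.6, 24.6 and 41.4 M in DEHP 200 replicates 1, 2 and 3. Replicates 2 and 3 of DEHP 200 stood apart from the other libraries and from each other. They lay at 49.1 and -60.3 on principal component 1 of the 15 libraries at 0 months (25% of the variance), where the controls lay between -8.9 and 12.1. Their correlation with each other was r = 0.908 over the genes tested, against 0.974 to 0.98 between controls. Their 10 highest genes took 9.92 and 10.14% of the signal, against 5.86 to 6.34% in the other 4 libraries of the comparison. Corpus luteum markers moved with this: the 14 listed genes averaged 9.01, 9.40 and 9.30 log2 CPM in the controls and 8.80, 10.52 and 5.69 in DEHP 200. In such whole-organ RNA, fewer luteal cells and less RNA per luteal cell cannot be told apart. Results are therefore also given without replicates 2 and 3, and for some lists with the luteal list mean of each library as a covariate.

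No gene passed. Of 14740 genes tested with limma, 0 (0%) had a Benjamini-Hochberg adjusted p under 0.05 between DEHP 200 and control. The number at an unadjusted p under 0.05 was 740, where 737 are expected of this many tests without any difference. Among them 252 genes (1.71% of those tested) were higher with DEHP 200 and 488 (3.31%) were lower, so that 34.1% were higher. That share was 46.4% after each library was centred on its median and 50.1% after quantile normalization. All 3 DEHP 200 values lay above all 3 control values for 530 genes (3.6%), and below them for 627 (4.25%). With the 6 compared libraries alone in the fit, 1 gene passed, Hmga1b, a chromatin gene with near-identical copies (limma, adjusted p = 0.0334). It stood at -2.07, -3.34 and -3.34 in the controls and at 3.05, 3.53 and 3.51 with DEHP 200. Its SE of 0.44 was estimated from those 6 libraries alone. In the fit of all groups Hmga1b did not pass, and the smallest adjusted p of any gene was 0.411 (limma). The spread of Hmga1b within the other groups is not given here. Without control replicate 3, Obox2 passed (4.93, limma, adjusted p = 0.000205). The words higher and lower below therefore describe measured values, none of which passed the adjusted threshold, and these percentages are the background for each count of list members.

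Nearest to passing was Gstz1 (Entrez 14874, chromosome 12, 87147161 to 87164723, GRCm38.p6), which encodes a glutathione transferase that works as an isomerase in tyrosine breakdown. Its levels were 5.12, 4.97 and 5.21 log2 CPM in the controls and 5.62, 5.50 and 5.66 with DEHP 200. The groups did not overlap, and the difference was 0.49 ± 0.10 (SE, n = 3 per group; limma, adjusted p = 0.411), or 1.41-fold. Foxa3 (Entrez 15377, chromosome 7, 19013283 to 19023539), a forkhead transcription factor of endoderm tissues, stood at 0.56, 0.50 and 0.61 in the controls and at 1.73, 1.38 and 1.77 with DEHP 200. Its difference was 1.07 ± 0.28 (limma, adjusted p = 0.914), again without overlap. It was 1.18 with replicate 1 as the only DEHP 200 library.

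The other higher genes among the 10 of smallest p included Tnfrsf14, a receptor of the tumor necrosis factor family, at 1.95, 1.88 and 2.15 in the controls against 2.50, 2.66 and 2.84. Bcl2l12, a relative of the apoptosis regulator Bcl2, stood at 3.46, 3.36 and 3.44 against 4.06, 3.61 and 4.14. Both genes were separated by group, with differences of 0.67 ± 0.17 and 0.52 ± 0.14. Crtac1, which encodes a cartilage matrix protein, stood near the lower limit of the table in the controls, at -2.11, 0.30 and -2.93, and at 2.17, 2.20 and 2.13 with DEHP 200. Hoxc10, a homeobox gene, differed by 1.53 ± 0.40, and its controls ranged from -0.025 to 1.53. Obox2, an oocyte homeobox gene that has near-identical copies, was not separated by group: 2 controls were at -2.19 and -1.72 and control replicate 3 at 2.78, within the DEHP 200 range of 2.50 to 3.55. The pseudogene Llph-ps2 and the little-studied transcripts 4930451G09Rik and Gm16124 completed the 10, with differences of 1.60, 1.05 and 0.92.

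The 10 lower genes of smallest p differed by -1.02 (Ltbp2) to -0.295 (Acbd3), against 0.49 (Gstz1) to 3.75 (Crtac1) for the 10 higher ones. Tmf1 (Entrez 232286, chromosome 6, 97151950 to 97179151), a coiled-coil protein of the Golgi, stood at 5.93, 6.15 and 6.14 log2 CPM in the controls and at 5.74, 5.69 and 5.59 with DEHP 200. The groups did not overlap, and the difference was -0.40 ± 0.10 (limma, adjusted p = 0.914). Acbd3, another Golgi protein, differed by -0.29 ± 0.08, and Igf2r, the receptor that carries lysosomal enzymes and clears IGF2, by -0.69 ± 0.19. Dnajc10, an ER reductase that helps unfolded proteins reach degradation, stood at 7.65, 7.67 and 7.59 against 7.31, 7.33 and 7.36, with no overlap. Ltbp2, a matrix protein of elastic fibres, differed by -1.02 ± 0.28 and Fndc3b, an ER membrane protein, by -0.66 ± 0.17. Emp1 (a membrane protein, -0.50), Slc12a2 (the sodium, potassium and chloride cotransporter, -0.98) and Fer (a tyrosine kinase, -0.34) were also separated by group. Lims1, an adaptor at integrin adhesions, was the exception in this set, with DEHP 200 replicate 1 at 7.30 above control replicate 1 at 7.22.

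**Figure D1:**
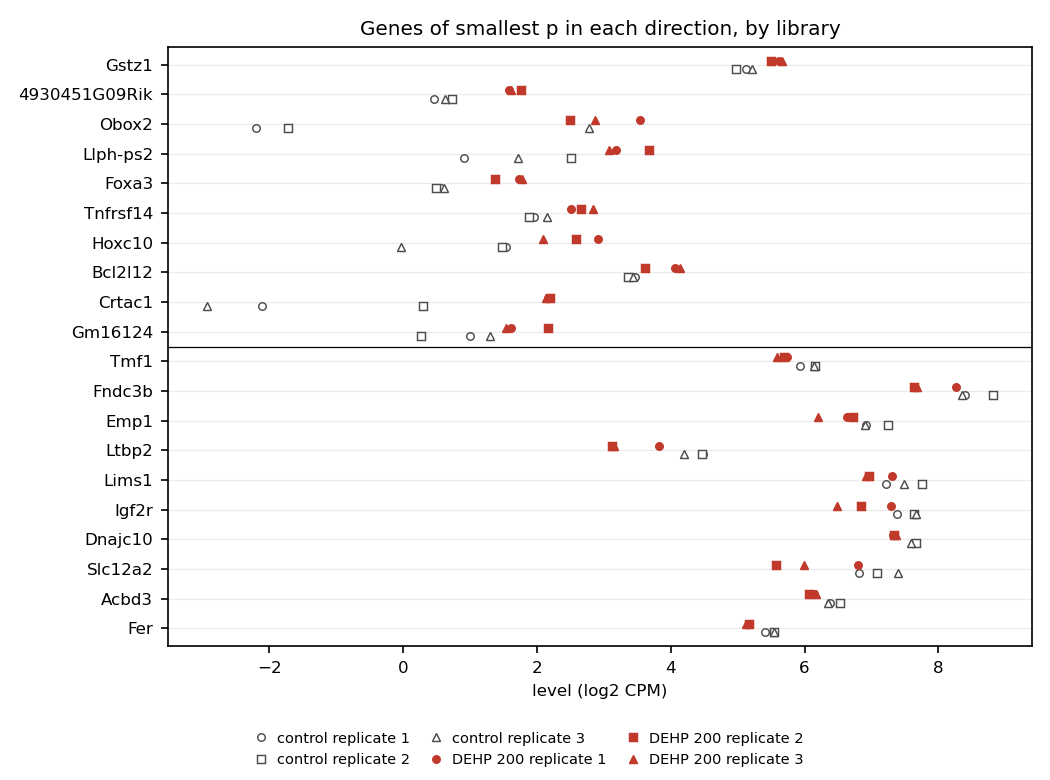
Level in log2 CPM (horizontal axis) of the 20 genes of smallest unadjusted p, 10 higher (above the line) and 10 lower (below it) with DEHP 200; open symbols are the 3 control libraries and filled symbols the 3 DEHP 200 libraries. Obox2 and Lims1 are the genes whose groups overlap, and the controls of Obox2 and Crtac1 spread most.

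In the unfolded protein response list, 32 of 33 genes were lower with DEHP 200, and the median difference was -0.37, or 0.776 of the control level, where the median of all genes tested was -0.002. Of these, 12 had an unadjusted p under 0.05 and 16 were separated by group, all of them lower, against 3.31% and 4.25% of all genes. The count of 12 depended on single libraries: it was 4 without control replicate 2, 8 if control replicate 3 or DEHP 200 replicate 3 was dropped, 17 if DEHP 200 replicate 2 was dropped and 5 with replicate 1 as the only DEHP 200 library. The list mean was 6.92, 7.21 and 7.03 log2 CPM in the controls and 6.58, 6.87 and 6.53 with DEHP 200, so each DEHP 200 library lay below each control. Without replicate 2 the median was -0.45, without replicate 3 it was -0.28, and with replicate 1 as the only DEHP 200 library it was -0.43, with 33 of 33 members lower. Replicate 1, whose luteal mean was nearest to the controls, had a list mean close to that of replicate 3, and with the luteal mean as a covariate the median was -0.31. Without control replicate 2, the highest of the controls, the median was -0.29. Median protein length in the list was 480 residues, against 474 for all genes. The parts of luteal content and of protein length in these values were not tested.

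The lumenal chaperones, which hold and refold proteins inside the ER, were lower in 9 of 9 members, 7 of them separated by group. Hspa5 (chromosome 2), the chaperone BiP, which also binds the sensors of the response, stood at 10.81, 10.89 and 10.84 in the controls and at 10.11, 10.53 and 10.16 with DEHP 200. Its controls lay close together and all DEHP 200 libraries were below them, with a difference of -0.58 ± 0.26 (limma, unadjusted p = 0.0322). Hsp90b1 (chromosome 10), the ER member of the HSP90 family, stood at 10.91, 11.61 and 10.76 against 10.29, 10.40 and 10.22. Hyou1, an ER relative of HSP70, stood at 8.96, 9.25 and 8.86 against 8.37, 8.41 and 8.29, a difference of -0.67 ± 0.22. Canx, the membrane lectin calnexin that retains unfinished glycoproteins, had the smallest p of the list, with 9.35, 9.51 and 9.34 against 9.17, 9.17 and 8.91 (-0.32 ± 0.10, unadjusted p = 0.00297, limma adjusted p = 0.914). Calr, its soluble relative, overlapped because DEHP 200 replicate 2 stood at 10.65.

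Of the disulfide-exchange enzymes and secreted ER factors, 7 of 7 were lower and 5 were separated by group. Pdia4, a protein disulfide isomerase, had 8.57, 9.84 and 8.56 in the controls and 7.997, 8.06 and 7.95 with DEHP 200. Its difference of -0.99 ± 0.36 was the largest of the list, and control replicate 2 was far above the other controls. Pdia6, a further isomerase, differed by -0.45 ± 0.21, and Creld2, a secreted ER-stress factor, by -0.60 ± 0.34. Genes of ER-associated degradation were lower in 6 of 6 members, 2 without overlap. Sel1l and Syvn1, the partners of the ubiquitin ligase complex that takes proteins out of the ER, were at -0.32 ± 0.12 and -0.53 ± 0.23.

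The sensors and transcription factors of the response were lower in 6 of 6, but 1 was separated by group and none had an unadjusted p under 0.05. Ern1, the sensor IRE1, was the separated one, at -0.46 ± 0.22, with DEHP 200 replicate 1 (6.206) just under control replicate 1 (6.21), while its target Xbp1 was at -0.065 ± 0.17. Targets of the integrated stress response, the branch that acts through Atf4, had 1 member separated by group, Sesn2 at -0.37 ± 0.19. Its other members varied by library: Chac1 stood at 0.77, 2.87 and -0.40 in DEHP 200 and at 0.90, 1.48 and 2.01 in the controls. Ppp1r15a, which restarts translation, was the member not lower, at 0.033 ± 0.18.

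**Figure D2:**
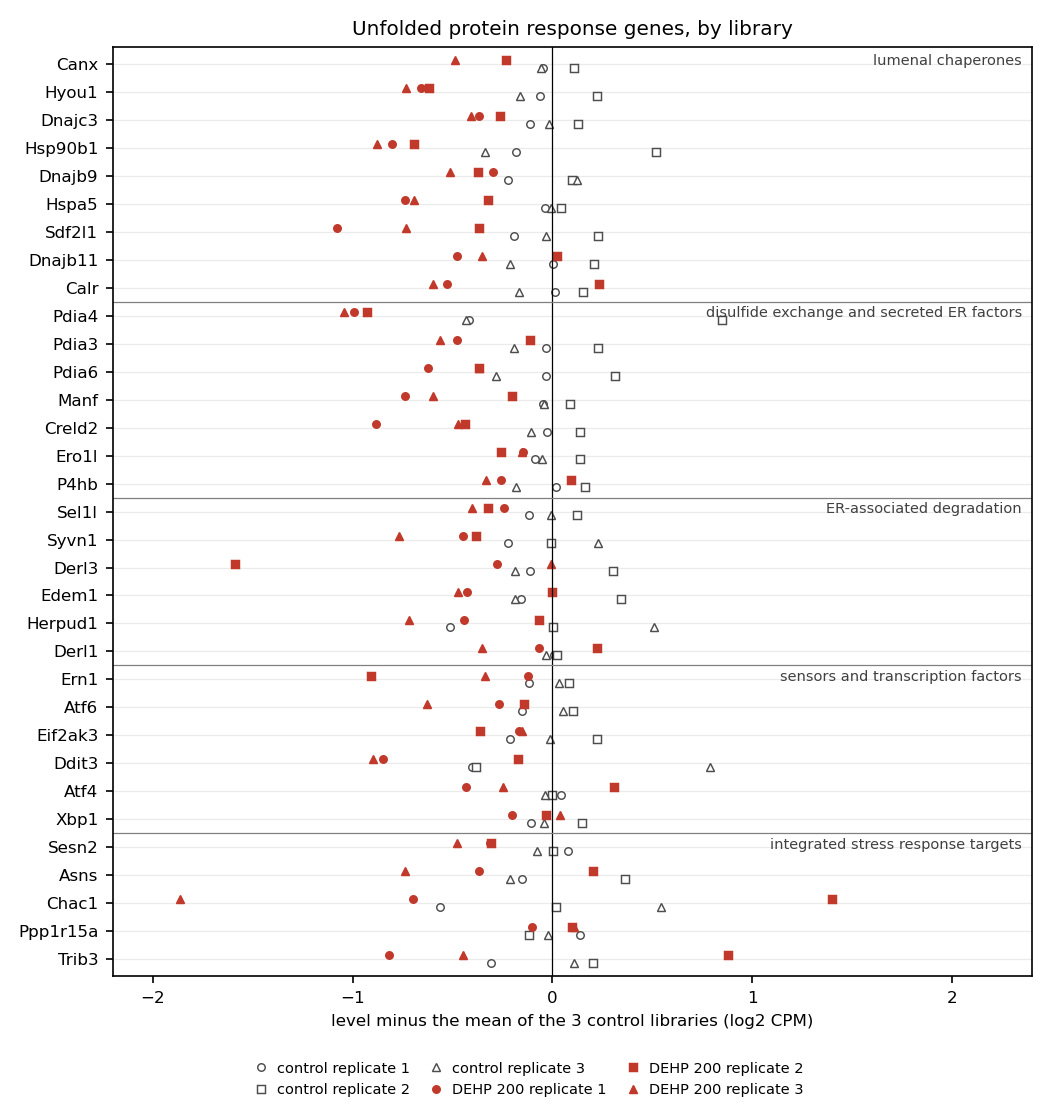
Level of each of the 33 tested unfolded protein response genes minus the mean of the 3 control libraries (horizontal axis, log2 CPM), grouped by role; open symbols are controls and filled symbols DEHP 200. In 16 genes all filled symbols lie to the left of all open ones, 7 of them among the 9 lumenal chaperones.

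A shared sequence was looked for in the promoters of these genes, with the RefSeq promoter table of GRCm38.p6, which holds 250 bases before and 50 after a start site. The ER stress response element, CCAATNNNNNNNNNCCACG, was searched on both strands. It was found in 9 of 29 promoters of the list (31%) and in 39 of all 32851 promoters (0.12%). The genes with a match were Calr, Canx, Creld2, Derl3, Dnajc3, Hsp90b1, Hspa5, Pdia6 and Syvn1. Of these 7 were separated by group, against 16 of 33 in the whole list and 4.25% of all genes. Separated members whose promoter held no match included Pdia4, Sdf2l1, Dnajb9, Ern1, Sel1l and Sesn2, so the element did not set the separated members apart. The upstream parts of these 7 are printed 5′ to 3′ on the gene's strand to show the element that genes of different roles hold in common, with the match in capitals; where the other strand matched, the capitals read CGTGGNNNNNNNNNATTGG.
Hspa5: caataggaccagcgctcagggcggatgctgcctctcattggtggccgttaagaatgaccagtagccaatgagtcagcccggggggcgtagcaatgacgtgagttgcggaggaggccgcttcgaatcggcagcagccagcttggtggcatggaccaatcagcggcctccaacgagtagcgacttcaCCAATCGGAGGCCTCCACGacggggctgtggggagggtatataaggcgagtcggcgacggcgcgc
Hsp90b1: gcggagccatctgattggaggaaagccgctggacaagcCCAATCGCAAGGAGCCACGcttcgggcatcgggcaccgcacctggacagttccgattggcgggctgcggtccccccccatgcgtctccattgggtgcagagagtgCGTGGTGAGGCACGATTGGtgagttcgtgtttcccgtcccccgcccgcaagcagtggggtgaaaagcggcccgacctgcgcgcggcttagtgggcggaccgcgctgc
Canx: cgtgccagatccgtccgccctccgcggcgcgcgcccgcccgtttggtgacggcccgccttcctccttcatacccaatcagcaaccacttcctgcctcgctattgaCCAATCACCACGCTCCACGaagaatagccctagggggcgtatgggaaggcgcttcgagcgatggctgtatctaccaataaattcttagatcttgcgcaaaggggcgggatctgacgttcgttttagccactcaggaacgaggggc
Dnajc3: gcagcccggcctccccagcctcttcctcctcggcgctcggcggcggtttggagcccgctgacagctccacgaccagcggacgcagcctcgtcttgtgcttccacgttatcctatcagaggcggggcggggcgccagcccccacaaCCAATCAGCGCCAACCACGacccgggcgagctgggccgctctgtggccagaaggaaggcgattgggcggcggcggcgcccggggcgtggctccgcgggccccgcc
Pdia6: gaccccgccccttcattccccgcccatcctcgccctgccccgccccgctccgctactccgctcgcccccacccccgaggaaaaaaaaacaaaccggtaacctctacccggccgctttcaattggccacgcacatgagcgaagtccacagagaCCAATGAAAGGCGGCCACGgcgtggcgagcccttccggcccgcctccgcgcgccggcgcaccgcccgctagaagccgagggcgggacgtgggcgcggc
Creld2: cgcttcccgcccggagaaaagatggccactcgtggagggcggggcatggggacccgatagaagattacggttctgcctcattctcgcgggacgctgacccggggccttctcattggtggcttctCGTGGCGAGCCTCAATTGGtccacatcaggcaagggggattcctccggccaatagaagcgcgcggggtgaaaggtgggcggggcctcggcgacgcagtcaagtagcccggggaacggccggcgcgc
Syvn1: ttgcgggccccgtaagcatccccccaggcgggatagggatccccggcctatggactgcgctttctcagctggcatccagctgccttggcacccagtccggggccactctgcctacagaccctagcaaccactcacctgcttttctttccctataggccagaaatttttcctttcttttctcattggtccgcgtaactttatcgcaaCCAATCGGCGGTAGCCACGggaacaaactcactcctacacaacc
These stretches are the 250 bases before the start site, at chr2:34771840-34772089 (plus strand) for Hspa5, chr10:86705445-86705694 (minus) for Hsp90b1, chr11:50325674-50325923 (minus) for Canx and chr14:118937682-118937931 (plus) for Dnajc3. Those of Pdia6, Creld2 and Syvn1 lie at chr12:17266339-17266588, chr15:88819396-88819645 and chr19:6046326-6046575, all on the plus strand. The match begins 65 bases before the start site in Hspa5, 98 in Pdia6, 44 in Syvn1 and 145 in Canx. Hsp90b1 holds it both 212 and 107 bases before its start. A match is a description of the letters and shows no binding.

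Cytosolic heat shock genes, which answer unfolded protein outside the ER, did not separate the groups in this way. Of 19 members 17 were lower, with a median of -0.18, but 0 had an unadjusted p under 0.05 (limma; 0 also passed the adjusted threshold) and 1 of 19, Hspa4l, was separated by group. Replicate 2 stood against the others. The inducible HSP70 gene Hspa1b had 7.33, 8.49 and 7.32 in the controls and 6.10, 8.51 and 5.96 with DEHP 200. Hspa1a had 6.35, 7.29 and 6.07 against 5.05, 7.49 and 4.53. DEHP 200 replicates 1 and 3 were below every control in both genes and replicate 2 above every control. Hspb8, a small heat shock protein, lay on the other side at 0.68 ± 0.45. The core heat shock element GAANNTTC, the same on both strands, was in 12 of 21 promoters of these genes (57.1%) and in 7.86% of all promoters.

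Further along the secretory route, genes of collagen folding and export were lower in 14 of 16 members (median -0.14), and Golgi tethers in 9 of 12 (median -0.15). Median protein length was 672 residues in the former list and 1058 in the latter, against 474 for all genes. The part of length in these values was not tested. In the Golgi list Tmf1, described above, had the smallest p. In the collagen list the smallest p belonged to coat proteins that carry cargo out of the ER. Sec23a stood at 7.02, 7.16 and 7.03 in the controls and at 6.90, 6.64 and 6.66 with DEHP 200. Its partner Sec24d stood at 6.82, 6.96 and 6.85 against 6.69, 6.25 and 6.36. Both were separated by group (Sec23a -0.34 ± 0.11, Sec24d -0.45 ± 0.16). Crtap, which modifies procollagen, was at 0.17 ± 0.11 and Ppib, a proline isomerase of the ER, at 0.037 ± 0.13.

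All 16 of 16 basement membrane genes were lower (median -0.41), and 7 of them had an unadjusted p under 0.05, against 3.31% of all genes. But this rested on replicates 2 and 3. Without replicate 3 the median was -0.21 with 13 of 16 lower and 1 at an unadjusted p under 0.05, and with replicate 1 alone it was -0.054 with 10 of 16 lower and 0 at that p in limma (0 also passed the adjusted threshold). The count of 7 was 12 without DEHP 200 replicate 1 and 4 without control replicate 2. The collagen IV gene Col4a1, the main network former of basement membranes, stood at 10.72, 11.06 and 10.71 in the controls and at 10.48, 10.66 and 9.44 with DEHP 200. Replicate 3 was the lowest library, and the groups did not overlap (-0.64 ± 0.22). Lama4, a laminin chain of vessel walls, stood at 7.17, 7.54 and 7.29 against 6.96, 6.86 and 6.79, with all DEHP 200 libraries close together. Col18a1, which yields endostatin, was the other member without overlap. Lamb1 and Lamc1, chains of most laminins, had DEHP 200 replicate 1 within the control range and replicates 2 and 3 below it. Median protein length in this list was 1786 residues, against 474 for all genes, and the part of length in these values was not tested.

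Of the interstitial matrix genes 23 of 28 were lower (median -0.34), and 6 had an unadjusted p under 0.05, against 3.31% of all genes. These too rested on single libraries: without DEHP 200 replicate 3 the median was -0.16 and 0 were at that p in limma (0 also passed the adjusted threshold). The count was 1 without control replicate 2, 3 without control replicate 1 and 12 without DEHP 200 replicate 1. With replicate 1 alone the median was -0.088. Fibrillar and other collagens were lower in 9 of 9, with Col5a2, which sets fibril diameter, at 7.32, 7.31 and 7.04 in the controls and 6.90, 6.92 and 6.38 with DEHP 200. Loxl2, a collagen cross-linking oxidase, stood at 8.77, 9.43 and 8.45 against 8.25, 8.44 and 6.76. These were the 2 members separated by group, against 4.25% of all genes. Timp1, an inhibitor of matrix proteases, had the largest difference (-1.71 ± 0.73), from 7.83, 8.88 and 7.21 to 6.57, 7.83 and 4.40. Its replicate 3 was low and its replicate 2 inside the control range. On the other side lay Mmp2, a gelatinase, at 0.32 ± 0.43 and Postn, a matrix protein of stroma, at 0.29 ± 0.55. Median protein length in this list was 942 residues, against 474 for all genes, and the part of length was not tested here either.

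**Figure D3:**
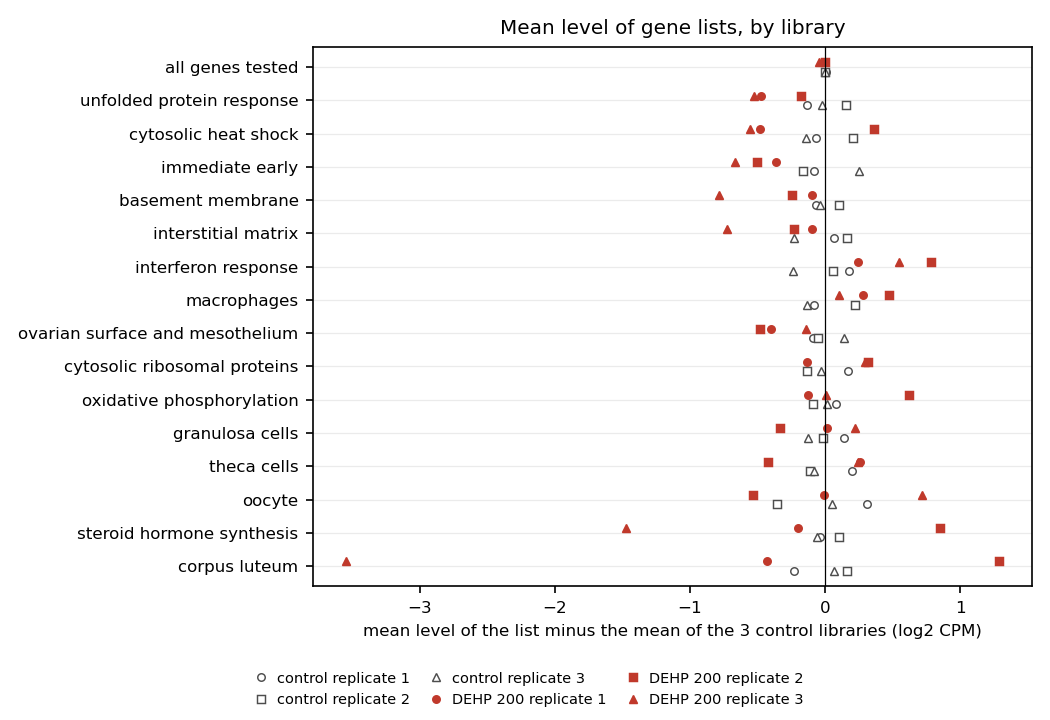
Mean level of 15 gene lists and of all genes tested in each library, minus the mean of the 3 control libraries (horizontal axis, log2 CPM); open symbols are controls and filled symbols DEHP 200. The filled symbols lie on one side of the open ones for the unfolded protein response, immediate early, basement membrane, ovarian surface and interferon response lists, by a narrow margin in replicate 1 for the basement membrane list, while for the corpus luteum list they spread from 5.69 to 10.52 in mean level around the controls.

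Immediate early genes, which cells transcribe within minutes of a growth factor, hormone or stress signal, were lower in 28 of 29 members. Their median was -0.44, and 8 members were separated by group, all lower, against 4.25% of all genes. With replicate 1 alone the median was -0.39 with 25 of 29 lower. Of all members 2 had an unadjusted p under 0.05, against 3.31% of all genes on the lower side. Neither gene did without DEHP 200 replicate 3 or without control replicate 2. Junb, a subunit of the AP-1 factor, stood at 5.23, 5.59 and 5.01 log2 CPM in the controls and at 4.48, 4.53 and 3.71 with DEHP 200 (-1.04 ± 0.46). Zfp36, which destabilizes cytokine messages, stood at 5.23, 6.24 and 5.09 against 4.63, 5.04 and 4.0. Btg2, an antiproliferative gene, stood at 5.70, 5.17 and 6.84 against 5.15, 4.72 and 4.36. In all these the groups were apart, and the controls differed among themselves by over 0.5. For Egr3, an early growth response factor, the spread within controls, from 1.32 to 4.63, was wider than the difference of -1.45 ± 1.14. Ier5 was the member not lower, at 0.025 ± 0.19, and the cyclic AMP response element TGACGTCA, the same on both strands, was in 2 of 27 promoters of these genes (7.4%, against 1.79% of all).

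Of 11 tested genes of ovulation and cumulus expansion, 3 were separated by group on the lower side and 2 on the higher. The shares of all genes were 4.25% and 3.6%. Edn2, an endothelin that contracts the follicle wall around rupture, had the lowest difference of all genes tested. It stood at 4.08, 2.48 and 5.45 in the controls and at 1.43, -0.49 and -1.38 with DEHP 200 (-4.15 ± 1.89). Adamts1, a protease that remodels the follicle matrix, stood at 6.05, 6.23 and 6.59 against 5.66, 5.73 and 5.17. Ereg, an EGF-like ligand of the ovulatory cascade, was the other lower gene, at -0.77 ± 0.56. Ptx3, which stabilizes the cumulus matrix, and Ptger2, a prostaglandin E receptor, were higher in every DEHP 200 library, by 0.66 ± 0.35 and 0.39 ± 0.29. With DEHP 20 the levels of Edn2 were -2.26, 0.19 and 3.78, so this gene ranged widely between libraries of another group too. Cdkn1a, the cell cycle inhibitor p21, was separated as well, at 6.14, 6.54 and 5.54 against 5.12, 5.09 and 3.37.

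Among interferon response genes 28 of 30 tested were higher with DEHP 200, by a median of 0.48, or 1.4-fold, and 2 further listed genes were under the level filter. Of these, 6 had an unadjusted p under 0.05 and 9 were separated by group, all higher, against 1.71% and 3.6% of all genes. The list mean was 2.82, 2.70 and 2.41 log2 CPM in the controls and 2.89, 3.43 and 3.19 with DEHP 200. Replicate 1 was close to the highest control. Without replicate 2 the median was 0.32 and none of the members had an unadjusted p under 0.05, without replicate 3 it was 0.42 with 3 at that p, and with replicate 1 alone it was 0.13, with 23 of 30 higher. Without control replicate 3 the median was 0.37, with 1 member at that p.

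Among the sensors and transcription factors, Irf7, which amplifies the type I interferon response, stood at 2.34, 1.94 and 1.46 in the controls and at 2.38, 3.06 and 2.76 with DEHP 200 (0.82 ± 0.36). Zbp1, a sensor of nucleic acids, stood at -2.16, -1.33 and -0.97 against -0.69, 0.41 and 0.39. The effector Oas1a, which makes the second messenger that activates RNase L, stood at -1.06, -0.52 and -2.92 against -0.41, 0.84 and 0.016 (1.65 ± 0.58, unadjusted p = 0.00963). Xaf1, a proapoptotic effector, had DEHP 200 replicate 1 within the controls (1.84, beside 1.84, 1.90 and 1.48) and replicates 2 and 3 at 3.16 and 3.38. Rtp4, a regulator of this response, differed by 0.78 ± 0.35. The members on the other side were Gbp2, a guanylate-binding protein, at -0.18 ± 0.24, and Irf1 at -0.015 ± 0.18.

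The interferon-stimulated response element GAAANNGAAA, searched on both strands, was in 11 of 27 promoters of the list (40.7%) and in 3.44% of all promoters. Of the genes with a match, Gbp3, Ifit1 and Oas1a were separated by group and hold it before the start site. Their upstream parts are shown in the same way, to show where the element lies in members that were higher. Where the other strand matched, the capitals read TTTCNNTTTC, and overlapping matches run together.
Gbp3: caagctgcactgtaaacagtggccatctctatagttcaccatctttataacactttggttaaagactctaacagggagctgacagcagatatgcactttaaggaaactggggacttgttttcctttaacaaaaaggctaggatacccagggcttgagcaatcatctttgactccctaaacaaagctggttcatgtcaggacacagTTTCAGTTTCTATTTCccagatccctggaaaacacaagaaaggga
Ifit1: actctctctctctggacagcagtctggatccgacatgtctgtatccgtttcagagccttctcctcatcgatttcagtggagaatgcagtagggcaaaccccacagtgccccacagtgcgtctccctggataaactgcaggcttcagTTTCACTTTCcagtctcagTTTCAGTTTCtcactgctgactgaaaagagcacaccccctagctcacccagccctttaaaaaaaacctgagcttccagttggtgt
Oas1a: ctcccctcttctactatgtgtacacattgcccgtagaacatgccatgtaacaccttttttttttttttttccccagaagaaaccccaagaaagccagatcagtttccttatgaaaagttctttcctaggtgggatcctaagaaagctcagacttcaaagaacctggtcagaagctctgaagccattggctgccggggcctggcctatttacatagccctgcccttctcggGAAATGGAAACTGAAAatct
They lie at chr3:142559794-142560043 (plus strand) for Gbp3, chr19:34640639-34640888 (plus) for Ifit1 and chr5:120907526-120907775 (minus) for Oas1a. The elements begin 45 and 39 bases before the start site in Gbp3, 104 and 85 in Ifit1 and 20 and 14 in Oas1a. Ifit1, which binds viral RNA, stood at 0.33, 0.17 and 0.057 in the controls and at 0.76, 1.22 and 1.23 with DEHP 200.

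Of the macrophage markers 21 of 22 were higher (median 0.30), and 6 were separated by group, against 3.6% of all genes. None had an unadjusted p under 0.05. The list mean was 3.76, 4.07 and 3.71 in the controls and 4.13, 4.33 and 3.95 with DEHP 200, so that the groups overlapped in it. Aif1, a cytoplasmic marker of these cells, stood at 1.14, 1.33 and 1.06 against 1.54, 2.07 and 1.61. H2-Ab1, which presents antigen, stood at 4.795, 4.95 and 4.46 against 5.41, 5.56 and 5.23. Mrc1, the mannose receptor of resident macrophages, was at -0.18 ± 0.26. The list median was 0.16 without DEHP 200 replicate 2, 0.22 without control replicate 3 and 0.36 with replicate 1 alone. The macrophage and interferon lists were thus both higher, and the part of the former in the latter was not tested. Of the lymphocyte markers 2 of 13 passed the filter, Cd4 and Ltb, and of the neutrophil markers 1 of 7; the T cell markers Cd3d, Cd3e and Cd3g were under it.

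Steroidogenic and luteal genes differed far more among the DEHP 200 libraries than between the groups. In the corpus luteum list 12 of 14 genes were lower (median -0.61), but without replicate 3 the median was 0.42, and none of the 14 was separated by group. Star, which carries cholesterol into mitochondria, stood at 9.60, 10.79 and 9.75 in the controls and at 9.37, 12.70 and 6.18 with DEHP 200. Cyp11a1, which cleaves the cholesterol side chain, stood at 12.20, 12.66 and 12.85 against 12.00, 13.98 and 9.08. Akr1c18, which inactivates progesterone as the corpus luteum regresses, stood at 8.16, 10.21 and 6.41 against 7.28, 11.85 and -0.55. Replicate 2 was above and replicate 3 below every control in all these genes, and replicate 1 was just below the controls or among them. Ptgfr, the receptor for luteolytic prostaglandin, and Sfrp4, a secreted inhibitor of Wnt, were at 2.01 and 2.402 in replicate 3 and at no less than 8.82 in the other 5 libraries.

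The panel of 16 reproductive genes had overlapping groups in 16 of 16, and 0 (limma) at an unadjusted p under 0.05. Differences ran from -0.89 ± 0.75 for Cyp11a1 to 0.92 ± 0.75 for Kitl, the ligand that activates primordial follicles. Their SE ran from 0.24 to 1.36, so that differences of a doubling or more in several of them lie within the interval of the estimate. Kitl stood at 6.75, 6.75 and 6.69 in the DEHP 200 libraries and at 4.85, 5.21 and 7.39 in the controls, of which replicate 3 was above every treated library. Cyp19a1, the aromatase that makes estrogens, stood at 6.16, 5.95 and 4.89 against 6.18, 5.21 and 5.42. Cyp17a1, the androgen-making enzyme of theca cells, stood at 9.95, 8.19 and 8.67 against 9.81, 8.22 and 8.49. Both sets of libraries covered nearly the same range. The FSH receptor gene Fshr was at -0.45 ± 0.34, the LH receptor gene Lhcgr at -0.34 ± 0.72, and the estrogen receptor genes Esr1 and Esr2 at -0.032 ± 0.24 and -0.14 ± 0.42. Amh, made by growing follicles, was at -0.055 ± 0.38, Inha at 0.026 ± 0.27 and Inhba at -0.50 ± 0.42, with the oocyte factors Gdf9 and Bmp15 at 0.11 ± 0.36 and -0.29 ± 0.39. Hsd3b1 and Hsd17b1, which complete progesterone and estradiol synthesis, were at -0.067 ± 0.34 and 0.10 ± 0.32.

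**Figure D4:**
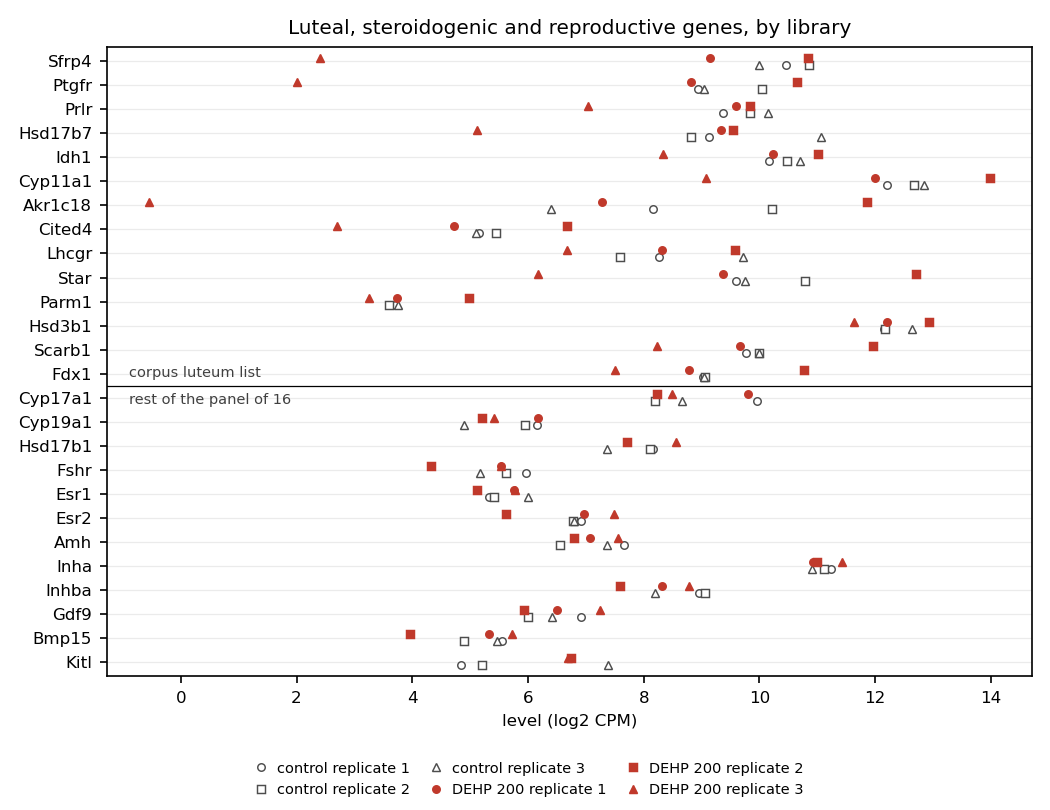
Level in log2 CPM (horizontal axis) of the 14 corpus luteum genes (above the line) and of the panel genes not in that list (below it); open symbols are controls and filled symbols DEHP 200. The filled triangle, replicate 3, is the lowest and the filled square, replicate 2, among the highest of the 6 libraries in most luteal genes, with Akr1c18 from -0.55 to 11.85.

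Markers of follicle cells and oocytes were present, with medians within 0.1 of 0. Granulosa cell markers had a median of -0.058 over 21 genes, theca cell markers 0.021 over 10, and oocyte markers 0.076 over 25, with no member of these at an unadjusted p under 0.05. Among the granulosa markers 9 were higher and 12 lower, the latter including Fshr and Inhba, given above. The granulosa factor Foxl2, on the higher side, stood at 8.04, 7.41 and 7.45 in the controls and at 7.95, 8.02 and 8.02 with DEHP 200. Each of these 3 medians took the other sign when 1 or more single libraries were left out. Markers of the ovarian surface and mesothelium were lower in 12 of 13 (median -0.38), 3 of them separated by group, against 4.25% of all genes. The keratin Krt7 stood at 2.94, 2.76 and 3.07 against 2.06, 2.33 and 2.73, and Upk3b, a mesothelial uroplakin, at 5.42, 5.49 and 6.06 against 5.35, 5.39 and 5.08. Endothelial markers were lower in 9 of 13 and higher in 4. Their median was -0.18, which was 0.052 without replicate 3. Cdh5, the cadherin of vessels, was at -0.51 ± 0.24, and Cldn5, on the other side, at 0.23. Adipocyte markers had the largest median of the 35 lists, 1.16, or 2.23-fold, with 7 of 8 tested higher, but 0 of them were at an unadjusted p under 0.05 in limma or passed the adjusted threshold, and 0 were separated by group. Their median ran from 0.10 without DEHP 200 replicate 3 to 2.23 without DEHP 200 replicate 2, and it was -0.054 at 3 months. The list mean was 3.15, 4.06 and 5.52 in the controls and 5.25, 3.52 and 6.14 with DEHP 200. The part of fat beside the ovary in the other results was not tested. Adipoq, a hormone of fat cells, stood at -0.47, 1.18 and 3.64 in the controls and at 3.07, 0.15 and 4.96 with DEHP 200.

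Genes of cytosolic ribosomal proteins were higher in 76 of 78 members (median 0.15) and those of oxidative phosphorylation in 63 of 68 (median 0.18), but 0 members of the former and 1 of the latter were separated by group, the latter on the lower side. With replicate 1 alone the medians were -0.077 and -0.12. For oxidative phosphorylation the list mean was 6.57, 6.40 and 6.50 in the controls and 6.36, 7.11 and 6.50 with DEHP 200, so that replicate 2 stood alone. Rpl30 differed by 2.22 ± 0.97 because control replicate 2 stood at 1.85 and every other library above 8, and Rpl26 was near 8 in 3 of the 6 libraries and near 0 in the other 3. Both genes have many processed copies, and their values are uncertain.

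Both lists hold short proteins, with medians of 151 and 139 residues, and levels in these libraries differed by protein length. Coding length was known for 13659 of the genes tested (92.7%), and they were cut into 5 classes of about equal size. The median difference was 0.092 in the shortest class (37 to 259 residues) and -0.14 in the longest (860 to 8799 residues). In the longest class 199 genes had an unadjusted p under 0.05 on the lower side and 8 on the higher, against 49 and 70 in the shortest. By library, the median against the control mean went from 0.28 in the shortest to -0.30 in the longest class in DEHP 200 replicate 2, and from 0.034 to -0.13 in replicate 3. It went from -0.060 to 0.019 in replicate 1 and stayed within 0.05 of 0 in every class in the controls. Across genes, which are not independent replicates, Spearman's rho of length with the deviation was -0.40 in replicate 2 and 0.12 in replicate 1, and between -0.18 and 0.13 in the controls. The part of length in the excess of lower genes was not tested.

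**Figure D5:**
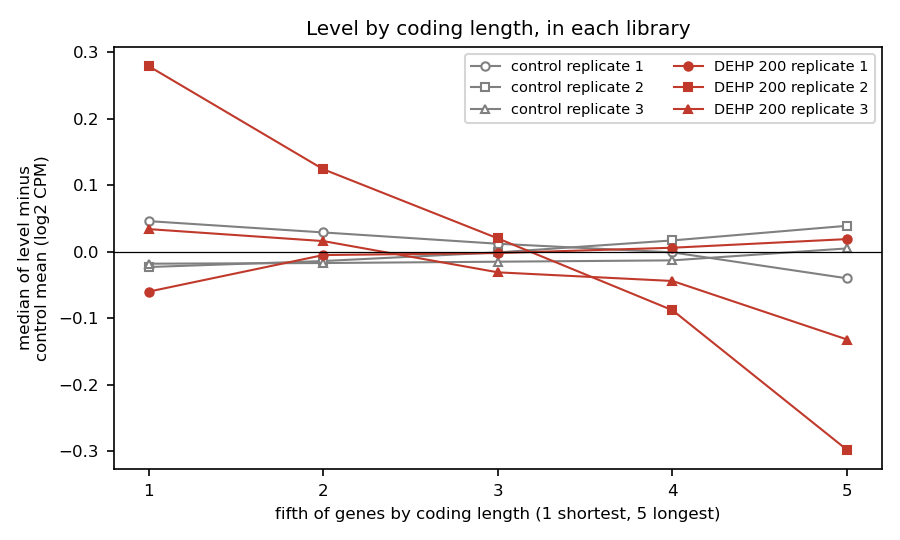
Median of level minus control mean (vertical axis, log2 CPM) in 5 classes of genes by coding length (horizontal axis, 1 shortest to 5 longest), with a line for each of the 6 libraries. DEHP 200 replicate 2 goes from 0.28 to -0.30 and replicate 3 from 0.034 to -0.13, while replicate 1 lies within the range of the controls in the longest class.

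Lists of detoxifying genes and of receptor pathways had medians between 0.033 and 0.29, while single members ran from -0.82 (Srxn1) to 1.08 (Fabp4). The glutathione transferases were higher in 17 of 20 members (median 0.29), with 2 at an unadjusted p under 0.05, Gstz1 and Gsta3, and 1 separated by group, Gstz1. The shares of all genes on the higher side were 1.71% and 3.6%. Gsta3, a transferase that also isomerizes steroids, stood at 1.96, 1.94 and 2.57 against 2.403, 3.13 and 2.91. Gclc, the catalytic subunit that starts glutathione synthesis, was on the other side at -0.50 ± 0.21. The median of all 43 glutathione and antioxidant genes, 0.15, was -0.11 with replicate 1 alone. The PPAR receptors, lipid-sensing nuclear receptors that phthalate monoesters activate, and their targets had a median of 0.033 over 28 genes. None of these had an unadjusted p under 0.05, and 1, the peroxisome gene Pex11a (0.18 ± 0.11), was separated by group, near the 3.6% of all genes. Ppara, Pparg and Ppard differed by -0.21, -0.10 and -0.047. Xenobiotic response genes had a median of 0.048 over 11 genes, with Ahr at -0.23 ± 0.26.

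Genes of the PI3K pathway, which sets the activation of resting follicles, were at a median of -0.091 over 20 genes. Of them 3 had an unadjusted p under 0.05, all lower, against 3.31% of all genes. Pik3ca, a catalytic subunit of the kinase, stood at 6.74, 7.01 and 6.85 in the controls and at 6.64, 6.64 and 6.47 with DEHP 200, without overlap (-0.28 ± 0.09). Foxo3, the brake on follicle activation, stood at 6.97, 6.99 and 6.99 against 7.02, 6.46 and 6.65, with replicate 1 above every control. In the apoptosis list (median -0.011 over 19 genes) the death genes Bcl2l11 and Apaf1 were at -0.62 ± 0.28 and -0.31 ± 0.15, with replicate 1 within the control range in both. The 33 proliferation genes had a median of -0.005, and both lists took the other sign under another scaling.

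The lower DEHP dose was compared directly, without the controls. Between DEHP 200 and DEHP 20 at 0 months limma called 0 of 14740 genes (0%), while 582 had an unadjusted p under 0.05. Foxa3 came first, with DEHP 20 at 0.29, -0.23 and -0.12 log2 CPM, all below the controls, and the DEHP 200 libraries above them (1.65 ± 0.28, limma, unadjusted p = 4.52e-06, adjusted p = 0.0666). Fndc3b followed at -0.76 ± 0.17. Basement membrane genes were lower with DEHP 200 than with DEHP 20 in 16 of 16 members, with a median of -0.40. The unfolded protein response list differed little between the doses (median -0.070, 11 of 33 higher with DEHP 200). Both doses share the controls, against which this list's median was -0.24 with DEHP 20 and -0.37 with DEHP 200. The list mean was 7.06 log2 CPM in these controls, 6.73 with DEHP 20 and 6.66 with DEHP 200. It was 6.80 with DiNP 20 and 6.87 with DiNP 100, so the control was the highest of all groups at 0 months. The interferon list's median was 0.67 with DEHP 20 and 0.48 with DEHP 200 against those controls, and 5 of its 30 members were higher with DEHP 200 than with DEHP 20.

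For the time after dosing, the difference at 0 months was set against that of DEHP 200 from its own control at 3 months. None passed this interaction in limma (0 of 14740, 0%), while 375 had an unadjusted p under 0.05. In the unfolded protein response list 27 of 33 genes were higher with DEHP 200 at 3 months (median 0.17). At 0 months 32 of 33 had been lower, and the median of the interaction was -0.53. The list mean at 3 months was 6.877 (SD 0.189) in control libraries and 7.085 (SD 0.312) in those of DEHP 200. This control lay below every dosed group, whereas the control at 0 months lay above every one. The other dosed groups at 3 months averaged 7.192 (DiNP 20), 7.045 (DiNP 100) and 6.947 (DEHP 20). The part of the control's own shift in the interaction was not tested. Canx, which had the smallest p of the list at 0 months, differed by 0.22 at 3 months. Its interaction, which holds the difference it was picked by, was -0.53 ± 0.14 (limma, unadjusted p = 0.000648, adjusted p = 1). Hspa5 stood at 10.24, 10.58 and 10.05 in the controls at 3 months and at 10.26, 11.17 and 10.54 with DEHP 200. The control level itself was thus lower at 3 months than the 10.81 to 10.89 at 0 months. Immediate early genes had a median of -0.37 at 3 months, with 3 of 29 higher, near that of -0.44 at 0 months. Their mean at 3 months was 4.997 (SD 0.61) in the control and 4.51 (SD 0.44) with DEHP 200, so libraries of a group differed widely. With DEHP 20 at 0 months the median of this list was -0.06. Basement membrane and interferon medians at 3 months were -0.021 and 0.036. The interferon list mean at 3 months was 3.374 both in the control and with DEHP 200, against 2.643 in the control at 0 months.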

How the data were processed

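RNA of whole mouse ovaries was sequenced from stranded TruSeq libraries as single reads on a HiSeq, per the labels' protocols. Per the submitters' processing notes FastQC 0.11.8, Salmon 0.11.3, edgeR, R 3.5.2 and GRCm38.p6 were used. The authors deposited log2 CPM for 18022 genes in 30 libraries; raw counts were not used here, and the approximate depths were read from the steps between low values. Genes with a mean above 0 log2 CPM (14740) were tested in limma 3.58.1 (R 4.3.3) with 1 mean for each of the 10 groups, a prior trend and Benjamini-Hochberg adjustment, after the code was tested on simulated data. All groups share 1 estimate of the spread (20 residual degrees of freedom). The named genes were the 10 higher and 10 lower of smallest p, a panel of 16 reproductive genes and members of 35 lists (724 of 738 symbols in the table), chosen by p, by separation of the groups or as the exceptions. The members and lists were chosen with earlier results of these data known. Coding lengths came from GENCODE vM21 and promoters from RefSeq. Separated by group means that no value of the 3 libraries of one group lies within the range of the other. Alternatives changed the scaling, filter, pseudocount, prior, weights, samples and covariates. 1 listed marker gene is not reported here.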

Additional observations from a re-analysis of the deposited data

Results flagged for a closer look

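Of the genes of smallest p, 4 had every DEHP 200 library on one side of the control mean at 0 months and every one on the other side at 3 months. They were picked by p at 0 months, and that difference is part of the interaction. Their small unadjusted p for the interaction is therefore in part a result of the choice. How many of all genes meet the same rule was not counted. The difference at 0 months minus that at 3 months was 1.642 for Foxa3 (1.07 and -0.57; limma, unadjusted p = 0.00034, adjusted p = 1). It was -1.433 for Slc12a2 (-0.98 and 0.45; unadjusted p = 0.00134), -0.352 for Dnajc10 (-0.30 and 0.053; unadjusted p = 0.0073) and -0.432 for Fer (-0.34 and 0.089; unadjusted p = 0.00486), each with a limma adjusted p of 1. The mean of the ovarian surface and mesothelium markers switched sides in the same way, by -0.639 (-0.34 at 0 months and 0.30 at 3 months), and that difference was not tested. With DEHP 20 this mean was likewise below the control at 0 months (3.46 against 3.91) and above it at 3 months (3.695 against 3.49). It was 3.73 and 3.56 with DiNP 20 and 3.51 and 3.48 with DiNP 100.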

How the results depend on the processing

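Of 663 alternatives for 35 list medians 10 moved beyond the spread between replicates. That spread is the SD of the list mean within the compared groups, so lists that vary most between libraries can hardly move beyond it. The corpus luteum median ran from -1.495 to 0.418 and still counted as not moved, with an SD of 2.45 in DEHP 200. In the alternatives run, 14 lists kept their sign, among them the unfolded protein response (-0.45 to -0.28), immediate early (-0.51 to -0.33) and interferon (0.13 to 0.63) lists, and 21 did not. Of 36 named genes 13, all in the panel of 16 reproductive genes, had the other sign under at least 1 alternative, such as Star (0.99) and Cyp11a1 (0.42) without DEHP 200 replicate 3. The 20 genes of smallest p kept theirs, but they were picked by p in this same comparison, which favours a kept sign. The share of higher genes was 46.4% with median centring, 50.1% with quantile normalization, 47.3% with the corpus luteum mean as covariate and 46.2% with DEHP 200 replicates 2 and 3 both left out. Genes at an unadjusted p under 0.05 numbered 402 in a fit of the 6 libraries compared, 1660 with the luteal covariate and 169 with both replicates left out, and ranged from 301 (without control replicate 2) to 1671 (without DEHP 200 replicate 1) when 1 library was left out, with 432 without DEHP 200 replicate 3. Genes called numbered 1 in the 6 libraries (Hmga1b) and 0 to 1 when 1 library was left out, the 1 being Obox2 without control replicate 3. Against DEHP 20, limma called 1 gene without the prior trend and 1 with array weights, Foxa3 in each (adjusted p = 0.0234 and 0.0254). Array weights called 1 gene, Bcl2l12, in the difference between 0 and 3 months; their estimation did not reach its tolerance. Against DEHP 20 with both replicates left out, Ing1 passed (adjusted p = 0.0206). With both left out the medians were 0.134 for the interferon, -0.054 for the basement membrane, -0.077 for the ribosomal, -0.118 for the oxidative phosphorylation, 0.274 for the lymphocyte and -0.395 for the neutrophil list. That of the PPAR list was 0.103 with the luteal covariate and 0 to 0.135 when 1 library was left out, when that of the apoptosis list was -0.11 to -0.004 and that of the steroid receptors -0.277 to 0.188. The cause of these shifts was not tested. The neutrophil list had no gene under the stricter filter.

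Samples share only a replicate number: the deviations of same-numbered control and DEHP 200 libraries correlated at -0.174, 0.211 and 0.025, and not every library correlated best with its own number. With a replicate block 642 genes had an unadjusted p under 0.05, 34.3% of them higher, and 0 were called, so that it changed no call.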

Other observations

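Rpl26, which has many processed copies, was high in some libraries and low in others within each group. It stood at 7.89, 7.57 and 0.20 in the controls and at -0.33, 7.95 and 0.31 with DEHP 200. Hmga1b had the highest difference of all genes tested, 6.28, and Edn2 the lowest, -4.15. Neither gene passed the adjusted threshold in the fit of all groups.

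Genes of cholesterol synthesis were lower in 17 of 22 members (median -0.15), but without replicate 3 the median was 0.22, and 0 of them were at an unadjusted p under 0.05 in limma or passed the adjusted threshold. The 7 genes of DNA methylation were lower in 7 of 7 (median -0.15), with a mean of 5.96, 5.905 and 6.002 log2 CPM in the controls and 5.95, 5.30 and 6.07 with DEHP 200, so that replicate 2 was the low library. Their median protein length was 1620 residues, against 474 for all genes, and the part of length was not tested. Clock genes had a median of -0.046 over 15 genes.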
